A study of Mus musculus with 6 samples.

Results

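Arid5a, Zfp697, Hsf2bp, Nckap5, Clvs1 and Ano10 are 6 genes with little or no established place in skeletal muscle that stood higher in the mouse muscle libraries with low Net39 counts. They are 6 of the 24421 gene symbols in the count tables. They were chosen by their symbols, and the symbols had been selected on this same contrast because their counts were much higher in the Ctrl-labelled libraries than in the cKO-labelled libraries. Their levels in the labelled groups are therefore a description, and no p-value is given for them.

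Net39 is a protein of the inner nuclear membrane of muscle fibers. RNA of whole gastrocnemius/plantaris (GP) muscle was sequenced from 6 male mice with the strain label B6C3F1, each Net39 fl/fl (both alleles floxed around the first exon), treated with tamoxifen and taken at 5 months of age, 3 months after tamoxifen. By the study's methods, the floxed line came from B6C3F1 zygotes and its founders were mated to C57BL/6N mice. By the labels, the 3 Ctrl mice carried no Cre and the 3 cKO mice carried HSA-CreERT2, in which the human skeletal actin promoter drives an inducible Cre in skeletal muscle fibers and, by the study's methods, not in satellite cells or the heart, so the other cells of the muscle keep the floxed gene. Counts per library were 33860001 to 38201728 in the Ctrl-labelled libraries and 39191239 to 48839910 in the cKO-labelled libraries.

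The targeted gene goes against the labels. Net39, listed under its older symbol Ppapdc3, had 310, 321 and 217 counts in Ctrl-labelled mice 1, 2 and 3 and 5365, 4340 and 6080 counts in cKO-labelled mice 1, 2 and 3. By the design, Net39 is lost in muscle fibers of the mice with Cre, which by the labels are the cKO mice, where it was high. The count tables alone do not tell whether the labels were exchanged. Every direction below is stated for the labels as given, with log2 fold changes taken as cKO-labelled over Ctrl-labelled, so that a negative value means higher in the Ctrl-labelled libraries, where Net39 is low. The muscle label was met in both groups: the summed level of 8 skeletal muscle fiber genes was 95850 to 119400 CPM (counts scaled to a library total of 1000000) in the Ctrl-labelled libraries and 148700 to 197700 CPM in the cKO-labelled libraries.

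The 6 proteins act in different parts of the cell. ARID5A carries an AT-rich interaction domain and binds RNA as well as DNA. It is known from immune cells, where it stabilizes the mRNA of the cytokine IL-6 and of the transcription factor STAT3. ZFP697 is a C2H2 zinc finger protein that has been linked to inflammation and remodelling of muscle. HSF2BP binds heat shock factor 2 and, in germ cells, brings BRCA2 to sites of meiotic recombination. Clavesin 1, the product of Clvs1, is a lipid-binding protein of the CRAL-TRIO family, known from neurons, where it works on clathrin-coated vesicles and late endosomes. NCKAP5 was found as a partner of the adaptor protein NCK, and its relative NCKAP5L bundles microtubules. ANO10 belongs to the anoctamins, membrane proteins that act as chloride channels or move lipids between membrane leaflets, and its loss in people causes a recessive cerebellar ataxia.

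The promoter windows of the genes are shown because all 6 genes stood higher in the same libraries. The windows are from RefSeq on GRCm38.p6 (the assembly also called mm10), run from 250 bases before to 50 bases after the annotated start, and are written 5′ to 3′ on the gene's own strand. RefSeq windows were found for 5 of the 6 genes, with 2 for Nckap5, and none was used for Clvs1. Capitals mark each E-box, the letters CANNTG that bHLH factors such as myogenin bind.
Arid5a, chr1:36307483-36307782, plus strand: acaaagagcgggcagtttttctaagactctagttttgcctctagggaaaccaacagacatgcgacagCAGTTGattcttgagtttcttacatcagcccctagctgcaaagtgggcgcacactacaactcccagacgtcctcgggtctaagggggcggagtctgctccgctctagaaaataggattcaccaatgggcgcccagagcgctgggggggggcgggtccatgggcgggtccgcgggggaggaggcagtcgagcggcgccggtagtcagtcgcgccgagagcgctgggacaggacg
Zfp697, chr3:98382231-98382530, plus strand: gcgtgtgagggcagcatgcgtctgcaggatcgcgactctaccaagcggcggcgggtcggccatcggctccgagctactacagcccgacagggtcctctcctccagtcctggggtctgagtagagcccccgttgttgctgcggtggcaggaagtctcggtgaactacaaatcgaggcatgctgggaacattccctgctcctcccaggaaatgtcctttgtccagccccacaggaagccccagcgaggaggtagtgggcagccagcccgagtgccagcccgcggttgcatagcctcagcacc
Hsf2bp, chr17:32034459-32034758, minus strand: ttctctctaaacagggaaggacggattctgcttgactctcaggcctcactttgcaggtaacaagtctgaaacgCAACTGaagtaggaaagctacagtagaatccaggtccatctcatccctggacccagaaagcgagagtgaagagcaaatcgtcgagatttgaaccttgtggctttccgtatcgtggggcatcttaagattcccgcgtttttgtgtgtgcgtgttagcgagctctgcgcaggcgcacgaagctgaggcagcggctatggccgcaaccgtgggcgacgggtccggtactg
Nckap5, outer start, chr1:126830583-126830882, minus strand: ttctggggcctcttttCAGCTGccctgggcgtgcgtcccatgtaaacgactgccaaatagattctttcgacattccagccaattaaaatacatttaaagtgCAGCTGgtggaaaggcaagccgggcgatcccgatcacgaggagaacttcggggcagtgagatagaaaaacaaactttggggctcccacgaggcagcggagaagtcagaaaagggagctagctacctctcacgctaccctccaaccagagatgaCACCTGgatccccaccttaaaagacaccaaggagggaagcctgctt
Nckap5, inner start, chr1:126492878-126493177, minus strand: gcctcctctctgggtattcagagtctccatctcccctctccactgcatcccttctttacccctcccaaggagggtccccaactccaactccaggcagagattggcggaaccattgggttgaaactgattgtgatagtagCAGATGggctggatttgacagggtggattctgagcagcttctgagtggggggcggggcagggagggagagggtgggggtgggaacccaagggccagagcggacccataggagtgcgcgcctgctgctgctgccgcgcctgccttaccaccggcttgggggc
Ano10, chr9:122294374-122294673, minus strand: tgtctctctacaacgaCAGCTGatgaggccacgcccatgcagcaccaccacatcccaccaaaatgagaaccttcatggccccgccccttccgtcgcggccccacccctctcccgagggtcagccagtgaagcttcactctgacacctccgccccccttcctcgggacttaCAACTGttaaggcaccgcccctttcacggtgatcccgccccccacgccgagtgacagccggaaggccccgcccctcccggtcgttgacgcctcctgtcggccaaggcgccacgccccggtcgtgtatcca

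At least 1 E-box was in the windows of Arid5a, Hsf2bp, Nckap5 and Ano10 and none was in that of Zfp697. This is near the share of all promoters, since 72.3% of the 32851 RefSeq windows hold one. The form CAGCTG, which overlaps the E-box by construction, was found 2 times in the outer Nckap5 window, 234 and 149 bases before the start, and once in Ano10, 234 bases before the start. It is present in 16.3% of all windows. The heat shock element GAANNTTC was in the window of Zfp697, 67 bases before the start, and in that of Ano10, 184 and 123 bases before the start, against 7.9% of all windows. A kappaB motif was in both Nckap5 windows and in Ano10 (16.0% of all windows). The STAT motif TTCNNNGAA (8.3% of all windows), a p53 half-site (8.4%) and a MEF2 motif (3.2%) had no match in these windows. Both strands were searched, and a match is a description of the letters only. The windows of Ano10, Zfp697, Nckap5 at the inner start and Arid5a had a GC content of 65.7%, 64.0%, 61.7% and 60.3%, and those of Hsf2bp and Nckap5 at the outer start 53.7% and 52.3%, beside a median of 52.7% over all windows.

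Read per length, Ano10 was by far the most abundant of the 6 genes. Levels were compared between genes as CPM per kilobase of merged exons. In the Ctrl-labelled libraries, the mean level was 30.2 CPM per kilobase for Ano10, 2.57 for Arid5a, 1.64 for Hsf2bp, 1.35 for Zfp697, 0.617 for Nckap5 and 0.405 for Clvs1. Hsf2bp (1.05 to 2.31 over the 3 mice) and Zfp697 (1.21 to 1.58) overlapped in CPM per kilobase, as did Nckap5 (0.567 to 0.703) and Clvs1 (0.189 to 0.600), so these neighbors in the order do not differ beyond the spread between mice. In the cKO-labelled libraries, the mean was 9.40 CPM per kilobase for Ano10, 0.604 for Arid5a, 0.240 for Zfp697, 0.0743 for Nckap5, 0.0549 for Hsf2bp and 0.0150 for Clvs1. Hsf2bp thus ranked above Zfp697 and Nckap5 in one group and below both in the other, where its range (0.0380 to 0.0796 CPM per kilobase) overlapped that of Nckap5 (0.0665 to 0.0864). Per kilobase of the transcript with the longest coding sequence, Zfp697 (2.37) stood above Hsf2bp (1.89) in the Ctrl-labelled libraries, so the choice of length sets the order of these genes.

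The regulators of RNA and transcription come first. Arid5a lies on chr1:36307733-36324029 (plus strand, GENCODE M21 on GRCm38), with 6 exons in its longest coding transcript. Its level, in CPM with trimmed mean (TMM) scaling of the libraries, was 32.0, 30.1 and 34.7 in Ctrl-labelled mice 1, 2 and 3 and 7.93, 6.54 and 8.25 in cKO-labelled mice 1, 2 and 3. The groups did not overlap, and the mice of each group lay close together. The mean CPM was 32.3 ± 2.31 (SD, n = 3) against 7.57 ± 0.906 (SD, n = 3), a fitted 4.26-fold difference (log2 fold change -2.09, standard error 0.12). Arid5a had 1248 to 1269 counts in the Ctrl-labelled libraries and 252 to 363 in the cKO-labelled libraries.

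Zfp697 lies on chr3:98382461-98753812 (plus strand, 4 exons). Its level was 10, 10.4 and 13.1 CPM in Ctrl-labelled mice 1, 2 and 3 and 2.14, 1.90 and 1.91 CPM in cKO-labelled mice 1, 2 and 3. The cKO-labelled libraries were nearly equal, with the highest of the 3 only 1.13-fold above the lowest. The mean CPM was 11.1 ± 1.68 (SD, n = 3) against 1.98 ± 0.14 (SD, n = 3), a fitted 5.62-fold difference (log2 fold change -2.49, standard error 0.15).

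Hsf2bp, the meiotic BRCA2 partner, and Clvs1 showed the widest differences of the 6 genes, with estimates that lay within their standard errors of each other. Hsf2bp lies on chr17:31944769-32036349 (minus strand, 9 exons). It had 147, 233 and 303 counts in Ctrl-labelled mice 1, 2 and 3 and 6, 11 and 6 counts in cKO-labelled mice 1, 2 and 3, which is 3.75, 5.62 and 8.29 CPM against 0.169, 0.286 and 0.136 CPM. The gene was near absent from each cKO-labelled library, while the Ctrl-labelled libraries spread 2.21-fold from lowest to highest. The mean CPM was 5.89 ± 2.28 (SD, n = 3) against 0.197 ± 0.0784 (SD, n = 3), a fitted 29.6-fold difference (log2 fold change -4.89, standard error 0.42). The 23 counts summed over the cKO-labelled libraries have an exact 95% Poisson interval of 14.6 to 34.5, which covers counting error only.

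Nckap5, the widest of these genes at 917.2 kb, lies on chr1:125913620-126830799 (minus strand, 17 exons). Its level was 8.50, 7.02 and 6.86 CPM in Ctrl-labelled mice 1, 2 and 3 and 0.847, 0.805 and 1.05 CPM in cKO-labelled mice 1, 2 and 3. The libraries of each group lay within 1.30-fold of each other. The mean CPM was 7.46 ± 0.905 (SD, n = 3) against 0.899 ± 0.128 (SD, n = 3), a fitted 8.25-fold difference (log2 fold change -3.04, standard error 0.18).

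The membrane and vesicle genes are Clvs1 and Ano10. Clvs1 lies on chr4:9269293-9451691 (plus strand, 6 exons) and had 56, 134 and 166 counts in Ctrl-labelled mice 1, 2 and 3 and 6, 4 and 3 counts in cKO-labelled mice 1, 2 and 3. In CPM this was 1.43, 3.23 and 4.54 against 0.169, 0.104 and 0.0682. Clvs1 was the sparsest and the most variable of the 6 genes, and the Ctrl-labelled library 1 lay well below the other Ctrl-labelled libraries. The mean CPM was 3.07 ± 1.56 (SD, n = 3) against 0.114 ± 0.0513 (SD, n = 3), a fitted 26.9-fold difference (log2 fold change -4.75, standard error 0.57). The 13 counts summed over the cKO-labelled libraries have an exact 95% Poisson interval of 6.92 to 22.2.

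Ano10 lies on chr9:122175874-122294423 (minus strand, 13 exons). Its level was 181, 169 and 186 CPM in Ctrl-labelled mice 1, 2 and 3 and 56.1, 49.5 and 61.0 CPM in cKO-labelled mice 1, 2 and 3. It was the gene with the most counts (1907 to 7085 per library) and the smallest fold. The mean CPM was 179 ± 8.37 (SD, n = 3) against 55.5 ± 5.75 (SD, n = 3), a fitted 3.22-fold difference (log2 fold change -1.69, standard error 0.10).

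**Figure D1:**
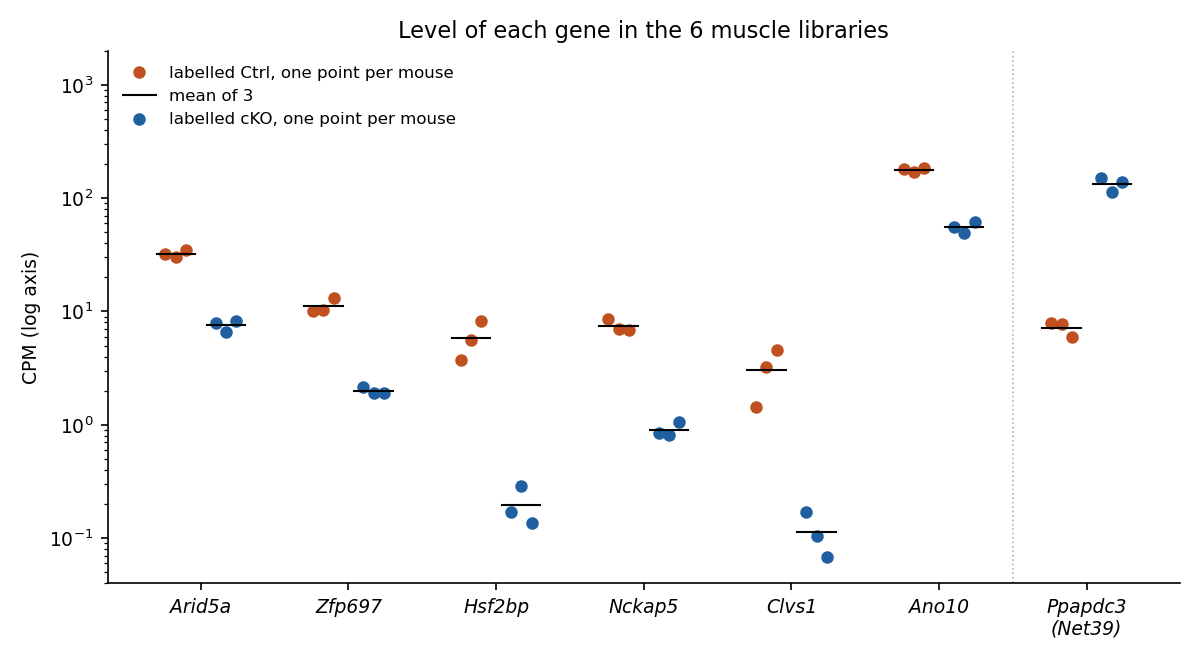
Level in CPM (log axis) of the 6 genes and of Ppapdc3 (Net39) in each library, with points for the mice labelled Ctrl and cKO and a line at the mean of 3. The lowest library labelled Ctrl exceeded the highest labelled cKO from 2.78-fold in Ano10 to 13.1-fold in Hsf2bp, while Ppapdc3 had the opposite order.

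Each of the 6 genes had at least 1 count in each library and was kept by edgeR's expression filter, Hsf2bp and Clvs1 by their Ctrl-labelled libraries alone. In all of them the groups did not overlap, which over all 14180 genes tested was so, with the Ctrl-labelled libraries higher, in 21.9%. A gene was called where edgeR's quasi-likelihood test gave a Benjamini-Hochberg adjusted p under 0.05 and a fold over 2, and 556 genes (3.92%) were called higher in the Ctrl-labelled libraries. The 6 genes were among these by their choice. Ordered by fold among the 556, Hsf2bp was 13th, Clvs1 14th, Nckap5 55th, Zfp697 97th, Arid5a 148th and Ano10 231st, and the median log2 fold change of the 556 was -1.51. The rule for the 6 genes gave no numeric threshold, and Ano10, with the smallest fold of the 6, lies well inside the called genes.

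**Figure D2:**
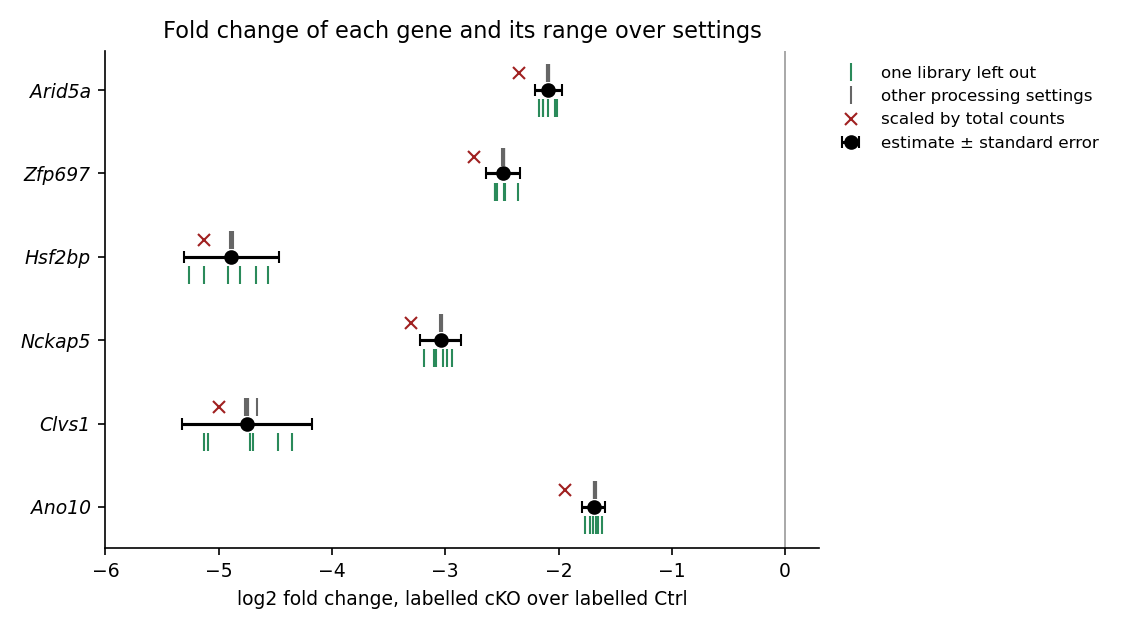
Log2 fold change (labelled cKO over labelled Ctrl) of each gene. Black points are the estimates with standard errors, green ticks leave out one library each, gray ticks are other settings and red crosses scale by total counts. Hsf2bp ranged from -5.26 to -4.56 and Clvs1 from -5.13 to -4.35 over all settings tried, against -1.94 to -1.62 for Ano10.

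The 6 genes differed in how they varied between mice of a group. Hsf2bp and Clvs1 were the variable pair: their biological coefficient of variation, the spread between mice beyond counting error in edgeR's fit, was 0.290 and 0.382, above 91.6% and 96.3% of all genes tested. Ano10 (0.113), Arid5a (0.117), Zfp697 (0.142) and Nckap5 (0.153) lay near the median of 0.135. Among the Ctrl-labelled libraries, Hsf2bp, Clvs1 and Zfp697 were lowest in mouse 1 and highest in mouse 3, whereas Nckap5 was highest in mouse 1 and lowest in mouse 3. Arid5a and Ano10 were lowest in mouse 2 and highest in mouse 3 in either group. The mouse numbers of the groups name different animals.

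The slow myosin gene Myh7 varied widely within the cKO-labelled libraries. Its level was 3680, 1720 and 2220 CPM in Ctrl-labelled mice 1, 2 and 3 and 494, 974 and 75.3 CPM in cKO-labelled mice 1, 2 and 3, without overlap. The difference in Myh7 did not pass edgeR's test (log2 fold change -2.30, standard error 0.79, adjusted p = 0.0742). Of 10 slow fiber genes tested, Myh7 among them, 5 passed, and all 10 had a negative log2 fold change. Csrp3, for example, had -2.62 (edgeR adjusted p = 0.000627). The order of Myh7 among the Ctrl-labelled mice was that of none of the 6 genes, but slow fiber genes differed in this order. Atp2a2 (4190, 3070 and 3200 CPM in Ctrl-labelled mice 1, 2 and 3) had the order of Myh7. Others, among them Myl2 (1510, 822 and 751 CPM) and Csrp3 (465, 443 and 392 CPM), had the order of Nckap5. The part of fiber type in the levels of the 6 genes was not tested. In the library labelled cKO 3, where Myh7 was lowest, Arid5a, Nckap5 and Ano10 were at their highest for that group, whereas Zfp697 was highest in cKO 1. The counts of Hsf2bp (6, 11 and 6) and Clvs1 (6, 4 and 3) in cKO-labelled mice 1, 2 and 3 are too few to order these mice. Nckap5 (30, 31 and 46 counts) and Zfp697 (76, 73 and 84 counts) were also sparse in these mice. The order of the other genes was not tested against counting error.

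**Figure D3:**
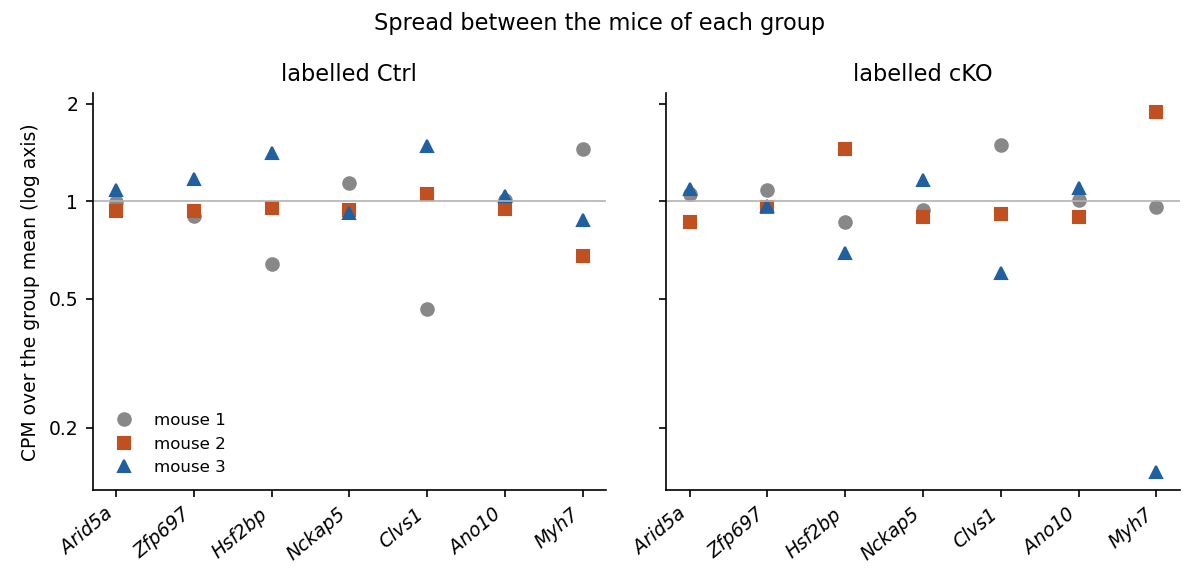
CPM of each library divided by the mean of its group (log axis) for the 6 genes and Myh7, one panel per labelled group and one symbol per mouse. Arid5a, Zfp697, Nckap5 and Ano10 stayed close to 1, whereas Hsf2bp and Clvs1 ranged more widely and Myh7 fell to its lowest in the mouse labelled cKO 3.

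The likeness of profiles was measured as the root mean square difference of log2 CPM over the 6 libraries, each gene centered on its mean, among 12353 genes with a mean of at least 1 CPM. The genes most like Arid5a were Tceal7 (0.13), Myog (0.15) and Nfkb2 (0.17). Ano10 had Itga9 (0.14), Myog (0.14) and Nfkb2 (0.15), and among those nearest to Zfp697 were Cpne2 (0.16) and Tceal7 (0.17). Myog, Nfkb2 and Tceal7 thus each stood among the nearest of more than 1 of these genes.

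Hsf2bp was most like Gpnmb (0.25), Rrad (0.29) and Ndrg4 (0.34), and Clvs1 was most like Cemip (0.17), Gpnmb (0.42) and Hsf2bp (0.42). Gpnmb, a membrane glycoprotein gene, had 41.3, 55.3 and 64.6 CPM in Ctrl-labelled mice 1, 2 and 3 and 2.85, 4.10 and 2.11 CPM in cKO-labelled mice 1, 2 and 3, and had the order of Hsf2bp among the Ctrl-labelled mice. Cemip, a gene for a hyaluronan-degrading protein, had 0.945, 2.29 and 3.77 CPM against 0.0847, 0.0779 and 0.0454 CPM, with the order of Clvs1 among the Ctrl-labelled mice. Nckap5 was most like Sox9 (0.25), E2f8 (0.27) and Gm20735 (0.30). These values describe 6 libraries in 2 groups, so genes with a similar fold come close to each other by that alone.

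Most relatives and known partners of the 6 genes did not pass the test, but neither did most genes of any kind. Of all genes tested, 24.4% passed in either direction. The share in the lists of relatives and partners ran from 7.69% (CRAL-TRIO family) to 42.1% (IL-6 and STAT3 partners). The lists, without the 6 genes, were written by hand except for the zinc finger genes, which were taken by their symbols, and each count below is of genes with an adjusted p under 0.05 in edgeR's quasi-likelihood test over all genes tested. A library left out is named as Ctrl or cKO with its mouse number. In that test 11.8% of all genes tested were higher in the Ctrl-labelled libraries and 12.6% in the cKO-labelled libraries, and the median over all genes was -0.015 on the log2 scale.

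Of the 13 other ARID family genes tested, 1 was higher in the Ctrl-labelled libraries and 1 in the cKO-labelled libraries, with a median log2 fold change of 0.09. With total counts the numbers were 3 and 0, and the 1 higher in the cKO-labelled libraries no longer passed without Ctrl 1, Ctrl 2, cKO 1 or cKO 3. The former was Arid5b, the closest relative of Arid5a, with 26.5 ± 7.5 CPM against 13 ± 3.34 CPM (SD, n = 3; log2 fold change -1.03, standard error 0.26, adjusted p = 0.0283 in edgeR's test). Its call was lost when the library labelled Ctrl 1, Ctrl 3, cKO 1 or cKO 3 was left out (edgeR adjusted p from 0.0647 to 0.0946).

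Of 19 tested genes of the IL-6 and STAT3 pathway and of mRNA stability, in which ARID5A acts in immune cells, 6 were higher in the Ctrl-labelled libraries and 2 in the cKO-labelled libraries (median log2 fold change -0.19). The 6 became 2 without Ctrl 1, 2 without Ctrl 2 and 3 without cKO 1, and the 2 became 0 or 1 with total counts or without any one library but cKO 2. Tlr4, a receptor for bacterial lipopolysaccharide, had 12.9 ± 3.83 CPM against 2.83 ± 0.704 CPM (SD, n = 3; log2 fold change -2.19, standard error 0.28, adjusted p = 0.00369 in edgeR's test). Stat3, Rc3h1, Rc3h2 and Zc3h12a, whose product destroys the IL-6 mRNA that ARID5A stabilizes, were singled out after their values were seen. Rc3h1 (log2 fold change 0.40, edgeR adjusted p = 0.0380) and Rc3h2 (0.36, edgeR adjusted p = 0.0406) were the 2 higher in the cKO-labelled libraries. Stat3 had 94.6 ± 9 CPM against 67.6 ± 3.04 CPM (SD, n = 3; log2 fold change -0.48, edgeR adjusted p = 0.0110). Zc3h12a had 7.38 ± 1.06 CPM against 3.82 ± 0.874 CPM (SD, n = 3; log2 fold change -0.95, edgeR adjusted p = 0.0154), and no longer passed without Ctrl 1, Ctrl 2 or cKO 1 (edgeR adjusted p from 0.0537 to 0.0598). Il6 itself had 0, 2 and 2 counts in Ctrl-labelled mice 1, 2 and 3 and 1, 3 and 3 counts in the cKO-labelled libraries, so no difference in Il6 was detectable at this depth.

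Of 14 tested heat shock factor, BRCA2 and meiotic recombination genes, 1 was higher in the Ctrl-labelled libraries and 1 in the cKO-labelled libraries (median log2 fold change 0.04), which became 3 and 1 with total counts. Hsf2, whose protein gives HSF2BP its name, had 39.3 ± 1.53 CPM against 31.8 ± 2.61 CPM (SD, n = 3; log2 fold change -0.30, edgeR adjusted p = 0.0371), and no longer passed when any one of the 6 libraries was left out (edgeR adjusted p from 0.0518 to 0.0916) and without the filter on low counts. The gene 4930432K21Rik, also named Brme1, whose protein binds HSF2BP in meiosis, had the opposite direction at a low level, 0.261 ± 0.109 CPM against 0.940 ± 0.490 CPM (SD, n = 3; log2 fold change 1.84, edgeR adjusted p = 0.0312). This call was lost without Ctrl 1, Ctrl 3 or cKO 3 (edgeR adjusted p from 0.0776 to 0.107).

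Around Clvs1, 1 of 13 tested CRAL-TRIO genes was higher in the Ctrl-labelled libraries and 0 in the cKO-labelled libraries in edgeR's test (1 at an unadjusted p under 0.05 and 1 with DESeq2), with a median log2 fold change of -0.12. Those higher in the Ctrl-labelled libraries became 5 with total counts, 3 where at least 10 counts were asked for in every library, 2 without the filter or with DESeq2's Wald test, and 0 to 2 with one library left out. The 1 gene was Prune2, with 25.9 ± 5.02 CPM against 8.98 ± 5.15 CPM (SD, n = 3; log2 fold change -1.52, edgeR adjusted p = 0.0266), and its call was lost without Ctrl 1, Ctrl 2, cKO 1 or cKO 2 (edgeR adjusted p from 0.0597 to 0.0832). Clvs2, the closest relative, had 0 to 3 counts per library and was not tested. Of 25 clathrin coat and adaptor genes, 2 were higher in the Ctrl-labelled libraries and 4 in the cKO-labelled libraries (median log2 fold change 0.04), which became 9 and 2 with total counts and 1 and 2 without Ctrl 1, Ctrl 2 or cKO 1, while the 4 became 2 without cKO 3. The only called gene among them was Epn3, an epsin at 0.976 ± 0.453 CPM against 0.108 ± 0.0941 CPM (SD, n = 3; log2 fold change -3.20, edgeR adjusted p = 0.0231), lost without Ctrl 1, Ctrl 2 or cKO 1 (edgeR adjusted p from 0.0577 to 0.0780).

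Of 21 genes of microtubule plus ends and centrosomes, 2 were higher in each direction (median log2 fold change 0.08), which became 8 and 1 with total counts and, with one library left out, 1 higher in the Ctrl-labelled libraries and 0 to 3 in the cKO-labelled libraries, lowest without Ctrl 1. Nckap5l, the closest relative of Nckap5, had 5.59 ± 1.09 CPM against 5.09 ± 0.406 CPM (SD, n = 3; log2 fold change -0.14, standard error 0.17, edgeR adjusted p = 0.576), a difference within the spread between mice. Mtus2, which binds a plus-end tracking protein, was called at 0.573 ± 0.0817 CPM against 0.251 ± 0.0682 CPM (SD, n = 3; log2 fold change -1.17, edgeR adjusted p = 0.0356). Its call was lost when any one of the 6 libraries was left out (edgeR adjusted p from 0.0632 to 0.120), with DESeq2's Wald test and without the filter.

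Anoctamin genes passed the test in opposite directions. Of 13 anoctamin and lipid scramblase genes tested, 1 was higher in the Ctrl-labelled libraries and 2 in the cKO-labelled libraries (median log2 fold change -0.08). With total counts the numbers were 3 and 1, and the 2 became 1 without Ctrl 1, Ctrl 3, cKO 1 or cKO 3. Ano5, whose loss causes a limb-girdle muscular dystrophy in people, had 102 ± 9.89 CPM against 207 ± 22 CPM (SD, n = 3), higher in the cKO-labelled libraries (log2 fold change 1.03, standard error 0.11, adjusted p = 0.00272 in edgeR's test), against the direction of Ano10. Ano3 had 6.03 ± 1.11 CPM against 0.816 ± 0.626 CPM (SD, n = 3) and shared the direction of Ano10 (log2 fold change -2.86, standard error 0.55, adjusted p = 0.0122 in edgeR's test). Both passed edgeR's test in each alternative that gave a value, with an adjusted p of at most 0.0163 for Ano5 and 0.0452 for Ano3. The difference in Ano5 lay under the fold limit of 2 with total counts (log2 fold change 0.77) and, down to 0.95, when Ctrl 2, cKO 1 or cKO 3 was left out, and Ano3 gave no value where at least 10 counts were asked for in every library. Ano8, the closest relative of Ano10, had 38.1 ± 1.58 CPM against 42.0 ± 4.71 CPM (SD, n = 3; log2 fold change 0.14, standard error 0.10, edgeR adjusted p = 0.324).

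Zfp697 had a direction opposite to most of the genes named like it that passed the test. Of 330 tested genes with the symbol Zfp and a number, 13 were higher in the Ctrl-labelled libraries and 54 in the cKO-labelled libraries (median log2 fold change 0.12), and 4 were called in each direction. Those higher in the Ctrl-labelled libraries, like Zfp697, were Zfp365, Zfp385b, Zfp474 and Zfp703, and the others were Zfp239, Zfp454, Zfp467 and Zfp773. Zfp474 had 57, 90 and 44 counts in Ctrl-labelled mice 1, 2 and 3 and 0, 0 and 1 counts in cKO-labelled mice 1, 2 and 3, so it had its counts almost wholly in the Ctrl-labelled group. Zfp467 had 13.6 ± 2.47 CPM against 35.1 ± 5.9 CPM (SD, n = 3; log2 fold change 1.37, edgeR adjusted p = 0.00369). Leaving out one library ended the calls of Zfp703 (without Ctrl 1, Ctrl 2, cKO 1 or cKO 3, edgeR adjusted p up to 0.0797), Zfp239 (without Ctrl 1, Ctrl 2, cKO 2 or cKO 3, up to 0.114) and Zfp773 (without any one but Ctrl 2, up to 0.123). The call of Zfp773 was also lost with total counts, and those of Zfp239 and Zfp773 with a block for the mouse number. With total counts in place of TMM scaling the balance turned, with 45 higher in the Ctrl-labelled libraries and 16 in the cKO-labelled libraries. Without Ctrl 1 the numbers were 8 and 21, without Ctrl 2 9 and 25, without cKO 1 6 and 28, and without cKO 3 5 and 21.

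**Figure D4:**
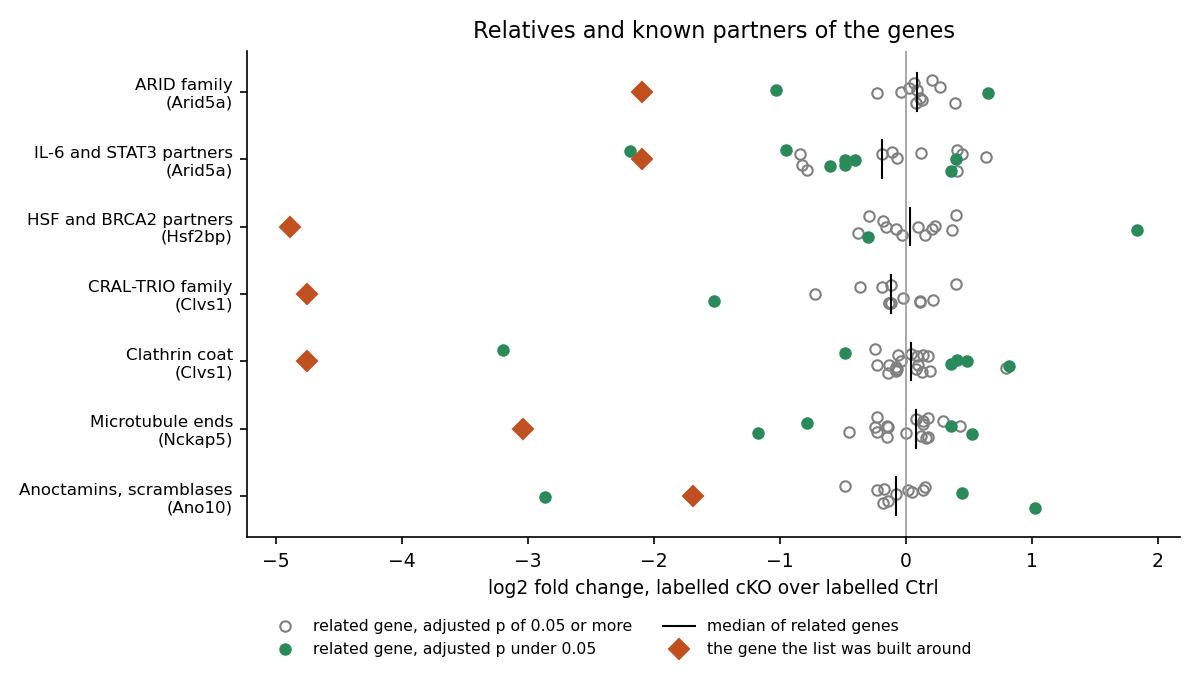
Log2 fold change (labelled cKO over labelled Ctrl) of the tested genes in the lists built around each of 5 genes (circles, filled where edgeR's adjusted p was under 0.05), with the median of each list (black line) and the gene itself (diamond). The medians lay between -0.19 and 0.09, while the diamonds lay between -4.89 and -1.69. The diamonds are genes chosen for a large difference on this contrast, so this gap follows from their choice.

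Genes next to the 6 on the chromosome, taken as the nearest annotated gene on each side where it was tested, mostly showed small differences. Kansl3, next to Arid5a, had a log2 fold change of -0.32 (edgeR adjusted p = 0.0327, no longer passing when any one library but Ctrl 3 was left out, up to 0.111 without Ctrl 1), and Neurl3 one of -0.40 (edgeR adjusted p = 0.413). Chd7, before Clvs1, differed in the opposite direction to Clvs1 (0.53, edgeR adjusted p = 0.00757, and 0.0857 with total counts). Beside Ano10, Abhd5 also had the opposite direction (0.30, edgeR adjusted p = 0.0158) but no longer passed with total counts (0.05, edgeR adjusted p = 0.647) or without Ctrl 1, cKO 1 or cKO 3, while Snrk had -0.09 (edgeR adjusted p = 0.807). Sik1, beside Hsf2bp, had -0.93 (edgeR adjusted p = 0.152) and passed only without cKO 3 (-1.55, edgeR adjusted p = 0.0332). After Clvs1, 4930412C18Rik had -0.54 (edgeR adjusted p = 0.233). Mgat5, after Nckap5, had -0.21 (edgeR adjusted p = 0.654), and Phgdh, before Zfp697, had -0.30 (edgeR adjusted p = 0.448). Within 500 kb of the 6 genes, 64 other genes were tested, of which 7 (10.9%) were higher in the Ctrl-labelled libraries and 7 (10.9%) in the cKO-labelled libraries, each share near that of all genes.

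Some of the 6 genes share exon bases with a gene on the opposite strand, and the sources used here do not say whether counting used strand, so such reads cannot be assigned. Clvs1 shares 2302 exon bases with Asph, a hydroxylase gene that was far more abundant (188 ± 28.2 CPM against 258 ± 15.7 CPM, SD, n = 3). Asph was higher in the cKO-labelled libraries (log2 fold change 0.46, edgeR adjusted p = 0.0336), opposite to Clvs1, and no longer passed with total counts (0.20, edgeR adjusted p = 0.196) or without Ctrl 1, Ctrl 2, cKO 1 or cKO 3 (edgeR adjusted p from 0.0779 to 0.108). Hsf2bp shares 54 exon bases with Rrp1b, whose log2 fold change was -0.11 (edgeR adjusted p = 0.438, and -0.37 with edgeR adjusted p = 0.0215 under total counts).

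Zfp697 shares 380 exon bases with the steroid dehydrogenase genes Hsd3b2 and Hsd3b3, over which one annotated form of Zfp697 runs. Hsd3b3 had 17, 14 and 13 counts in Ctrl-labelled mice 1, 2 and 3 and 2, 6 and 3 counts in the cKO-labelled libraries, the same direction as Zfp697 (log2 fold change -1.97, edgeR adjusted p = 0.0192, lost without Ctrl 1, Ctrl 2, cKO 1 or cKO 3). Arid5a, Nckap5 and Ano10 share no exon bases with another counted gene.

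Of 22 genes of denervated and regenerating muscle, 10 were higher in the Ctrl-labelled libraries, 8 of them with a fold over 2, 2 were higher in the cKO-labelled libraries and 10 did not pass the test (median log2 fold change -0.59). Myog, the myogenin gene, had 20.8 ± 1.22 CPM against 5.63 ± 0.496 CPM (SD, n = 3; log2 fold change -1.89, edgeR adjusted p = 0.000550), and Ncam1, a cell adhesion gene that marks denervated fibers, had 39.2 ± 9.21 CPM against 10 ± 1.78 CPM (SD, n = 3; log2 fold change -1.97, edgeR adjusted p = 0.00253). Sln, a regulator of the calcium pump, had 276 ± 16.6 CPM against 1.80 ± 1.06 CPM (SD, n = 3; log2 fold change -7.28, edgeR adjusted p = 0.000550), and Myh3, the embryonic myosin gene, had 177 ± 22.1 CPM against 12.5 ± 8 CPM (SD, n = 3; log2 fold change -3.83, edgeR adjusted p = 0.00302). Myh8 (1.20, edgeR adjusted p = 0.0275, lost without Ctrl 1, Ctrl 2 or cKO 3, up to 0.0881) and Trim63 (1.05, edgeR adjusted p = 0.0399, lost with total counts, a robust fit and without Ctrl 1, Ctrl 2, cKO 1 or cKO 3, up to 0.119) had the opposite direction.

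Summed levels of slow fiber, type IIb fiber, immune, Schwann cell, smooth muscle and endothelial genes did not overlap between the groups, while those of 4 other cell types overlapped. Lack of overlap was common, as the groups did not overlap, in either direction, for 43.9% of all single genes tested. No such share was drawn up for sums of several genes. The summed level of 10 slow fiber genes was 9353 to 15850 CPM in the Ctrl-labelled libraries and 588 to 4145 CPM in the cKO-labelled libraries (5 of 10 higher in the former), and that of 8 type IIb genes 52670 to 90560 against 144300 to 186100 CPM (8 of 8 higher in the latter). That of 14 immune genes was 213 to 245 against 103 to 142 CPM, with 8 of the 12 tested higher in the Ctrl-labelled libraries. Schwann cell genes summed to 161 to 231 against 91.3 to 148 CPM (2 of 8 higher in the Ctrl-labelled libraries), smooth muscle genes to 499.9 to 509.7 against 404 to 425 CPM (2 of 7) and endothelial genes to 520.1 to 557 against 479.9 to 486 CPM (1 of 8). The summed ranges of fibro-adipogenic progenitor (1533 to 1770 against 1030 to 1948 CPM; 5 of 10), satellite cell (88.8 to 129.8 against 72.4 to 99.9 CPM; 0 of 7 in edgeR's test, 1 at an unadjusted p under 0.05 and 1 with DESeq2, and 1 of 7 higher in the cKO-labelled libraries), adipocyte (24.2 to 78.6 against 32.2 to 75.3 CPM) and tendon genes (333 to 361 against 163 to 714 CPM) overlapped, and of the 6 adipocyte and 6 tendon genes 0 passed in edgeR's test, at an unadjusted p under 0.05 or with DESeq2. The largest part of the satellite cell sum was Sdc4 (97.9, 58.5 and 60.1 against 43.1, 53.7 and 32.4 CPM). Of the 7 satellite cell genes, 3 had a negative log2 fold change, and the median was 0.42. No defining marker of the cell type lists was at 0 in all libraries. In whole muscle, more cells of a type and more RNA per cell cannot be told apart, and the part of these cells in the levels of the 6 genes was not tested.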

How the data were processed

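The authors used Trimmomatic 0.39 on paired-end reads, HISAT2 2.1.0 for alignment to mm10 and featureCounts 1.6.2 for counting, and deposited 1 table of raw counts per library for 24421 gene symbols, of which 98.4% were matched to an annotated gene. The annotation and strand setting of the counting are not given in the sources used here. Groups follow the sample labels. Counts were joined by symbol and fitted in R 4.3.3 with edgeR 4.0.16 (TMM scaling, filterByExpr, estimateDisp, glmQLFit and glmQLFTest, Benjamini-Hochberg adjustment over 14180 genes). TMM factors spanned 1.08 to 1.11 (Ctrl-labelled) and 0.865 to 0.983 (cKO-labelled). Standard errors were derived from the F statistic. The steps were tested on simulated data. The members and the lists were chosen with earlier results of these data known. The lists were written by hand (zinc finger genes by symbol), and genes named from them are those called, up to 4 per direction by p, with the closest relative of each gene, the neighboring genes and the 3 most similar profiles. A gene that this rule selects is not reported here. Exceptions are stated as singled out after their values were seen, as is Il6. Alternatives were each library left out, scaling by DESeq2 size factors or by total counts, DESeq2 1.42.0 (Wald test), a robust fit, other fold limits, a block for the mouse number, and the filter dropped or raised to 10 counts per library. Counts between mice of a group differed by more than sampling noise (chi-square per degree of freedom 31.3 to 107), so no library repeats another. The labels name separate mice. Positions are from GENCODE M21 and promoters from RefSeq, both on GRCm38.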

Additional observations from a re-analysis of the deposited data

How the results depend on the processing

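The 6 genes stayed higher in the Ctrl-labelled libraries under each alternative that gave them a value. Their direction was set by their choice on this contrast. The lowest Ctrl-labelled library exceeded the highest cKO-labelled library by 2.78-fold to 13.1-fold. The alternatives therefore show only how far the values moved. With total counts in place of TMM scaling, which took the median over all genes from -0.015 to -0.269 on the log2 scale, the values were -2.35 for Arid5a, -3.30 for Nckap5, -1.94 for Ano10 and -2.75 for Zfp697, beyond their spread between mice. Relative to the median of all genes under each scaling, each of the 6 values moved by at most 0.01. Leaving out one library gave -2.17 to -2.01 for Arid5a, -5.26 to -4.56 for Hsf2bp, -5.13 to -4.35 for Clvs1, -3.19 to -2.94 for Nckap5, -1.77 to -1.62 for Ano10 and -2.56 to -2.36 for Zfp697. Hsf2bp and Clvs1 gave no value where at least 10 counts were asked for in every library.

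Genes called higher in the Ctrl-labelled libraries numbered 556, 1023 with total counts, 1668 with no fold limit and 398 to 685 with one library left out. Those higher in the cKO-labelled libraries numbered 302, 157 with total counts, 1786 with no fold limit and 172 to 387 with one library left out, lowest without Ctrl 1. Of the related genes on the 8 hand-written lists, 24 passed higher in the Ctrl-labelled libraries (53 with total counts, 14 with a fold over 2, 13 to 23 with one library left out, lowest without Ctrl 1, cKO 1 or Ctrl 2) and 14 in the cKO-labelled libraries (6 with total counts, 4 with a fold over 2, 4 to 17 with one library left out, lowest without Ctrl 1, cKO 3, Ctrl 2 or cKO 1). The same-numbered mice of the groups did not deviate together (correlations 0.08, -0.21 and -0.00), so the number is no pairing. With it as a replicate block, 448 and 236 genes were called, 19 and 8 related genes passed, and the 6 genes moved by at most 0.09. The cause of these shifts was not tested. Depth limits Clvs1 and Hsf2bp in the cKO-labelled libraries, with 3 to 11 counts each.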
